A study of Caenorhabditis elegans with 24 samples.

Results

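Gene expression was compared between untreated *abl-1* KO animals and untreated wild-type (wt) animals of the nematode *Caenorhabditis elegans*, in 5 libraries of each, which are 10 of the 24 libraries of the series. The members are the libraries labelled NV50 (*abl-1* KO) and NV48 (wt) without a compound, and the comparison was made across the 12771 of 20191 genes of the table with at least 0.5 RPKM (mapped reads scaled by exon length and by library total) in at least 4 of the 24 libraries. NV50 carries the *abl-1* mutation and NV48 does not, and both strains were isolated from the same cross, between XR1, which holds the *ok171* allele of *abl-1*, and GRU102, a line with a neuronal amyloid-beta transgene. Both groups were fed from the egg on HT115 bacteria with the empty vector L4440 and the solvent of the compounds, DMSO with Tween 80, and whole animals were collected on day 3. Each library comes from a pool of animals, and the study's methods call the 5 of a condition separate biological samples. For the RNA the methods write NV48 with the tag nAD, the study's name for the amyloid-beta animals, and NV51 as the mutant, a strain that carries the transgene in the study's strain list, whereas that list and the labels give NV48 as wild type and the labels give the mutant as NV50. The labels were followed, and whether either group carries the transgene was not tested. Each genotype is represented by 1 strain, so the mutation and any other difference between NV50 and NV48 cannot be told apart. The other 10 libraries used below are *abl-1* KO and wt animals of the same strains on 100 µM quercetin. They also entered the estimate of the spread shared by all 24 libraries, and 4 libraries of wt animals on lutein entered only that estimate.

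ABL-1 is the worm counterpart of the mammalian Abl non-receptor tyrosine kinases, which link receptors and integrins to the actin cytoskeleton and also act in stress and DNA damage signalling. In *C. elegans*, ABL-1 is known as an inhibitor of apoptotic cell engulfment through the Abl interactor ABI-1, as a modulator of germline apoptosis after radiation, and as a regulator of neuronal migration and axon outgrowth. The comparison of the strains shows what differs in the RNA of whole animals when no compound is given.

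The RPKM values do not state their depth, and spacing of the low values gave an estimate of 27.7 to 41.8 M mapped reads (M, 1e6) in *abl-1* KO libraries and 27.6 to 35.9 M in wt libraries. The labelled whole animal was checked against 10 sets of tissue and cell type markers, of which no gene was called. The fit with a replicate block described below called 3 of 9 tested intestine markers, 1 of 6 pharynx markers and 1 of 5 epidermis markers. Over all tested genes that fit called 256 (2%). The summed levels of intestine, body wall muscle, pharynx, neuron, epidermis, germline, oocyte and early embryo markers overlapped between the strains. Sperm markers summed to 26.6 to 671 RPKM in *abl-1* KO libraries and 18 to 132 RPKM in wt libraries, the 671 RPKM being *abl-1* KO replicate 2 and the next *abl-1* KO library reaching 189 RPKM. By the median library that sum was lower in *abl-1* KO, at 38.4 RPKM against 56.1 RPKM in wt, the reverse of the fold changes that follow. Several sets lay to one side, with 36 of 37 tested sperm markers above wt (median log2 fold change 0.76), 4 of 5 epidermis markers above (median 0.27), 6 of 6 pharynx markers above (median 0.20) and 0 of 7 early embryo markers above (median -0.23). Above wt were also 8 of 8 body wall muscle (median 0.08), 9 of 10 neuron (0.12) and 8 of 9 intestine markers (0.08). Only 2 of 10 germline (median -0.07) and 2 of 12 oocyte and eggshell markers (-0.02) were above wt. Of all tested genes 62.2% lay above wt. What these sets contribute to the gene lists below was not tested. Each of the 10 markers of male soma stayed under 1 RPKM in every untreated library, and *clec-164* was at 0 in all of them. The first principal component held 53.4% of the variance with *abl-1* KO replicate 2 at its end, and the part of the sperm RNA in the results below was not tested beyond leaving that library out.

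Few genes were called between the untreated strains by the fit without a replicate block, and many of the differences were small. The fit with that block on the 10 untreated libraries, described below, called more, 256 (2%). By the limma test on log2(RPKM + 0.5), 61 of 12771 genes (0.478%) were called at an adjusted p of at most 0.05, of which 40 (0.313%) were higher and 21 (0.164%) lower in *abl-1* KO. The falls were larger than the rises, with a median log2 fold change of -0.73 over the genes called lower and 0.44 over those called higher. A log2 fold change of at least 1 was reached by 8 of the risen genes and one of -1 or less by 9 of the fallen genes, while 22 rises stayed under 0.5. In 57 of the 61 genes the libraries of the strains did not overlap, which held for 267 (2.09%) of all tested genes, 199 higher (1.56%) and 68 lower (0.532%). At an unadjusted p of 0.05 or less, 1412 genes (11.1%) passed. Of all tested genes 62.2% had a log2 fold change above 0 and the median was 0.03, and with the libraries rescaled by the median of ratios the median was 0.002 and the calls were 29 higher and 26 lower. Without *abl-1* KO replicate 2 the calls were 41, of which 23 were higher. The fold changes are on the log2(RPKM + 0.5) scale, which understates the change of genes near or below 0.5 RPKM.

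**Figure D1:**
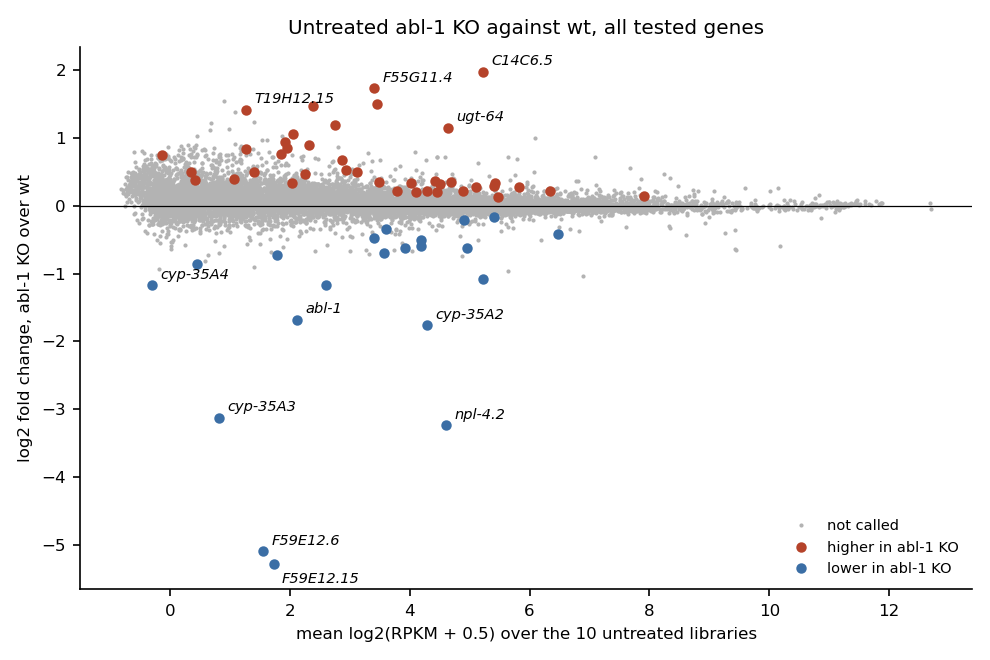
Log2 fold change of untreated *abl-1* KO over untreated wt (vertical axis) against the mean log2(RPKM + 0.5) over the 10 untreated libraries (horizontal axis), 1 point per tested gene, with genes called at an adjusted p of at most 0.05 in red (higher in *abl-1* KO) or blue (lower). Most of the 12771 genes lie near 0, and the lowest points are F59E12.15 and F59E12.6 at -5.29 and -5.10.

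The *abl-1* gene (chrX:10605827-10624207 of WBcel235, minus strand) was the only called member of the engulfment pathway. Its levels were 2.04, 1.85, 2.14, 1.72 and 1.91 RPKM in *abl-1* KO libraries, against 7, 7.52, 7.3, 7.51 and 7.08 RPKM in wt libraries. The groups did not overlap, and the level in *abl-1* KO was 26.5% of that in wt (log2 fold change -1.68 ± 0.06, SE, adjusted p = 1.21e-15). Reads of *abl-1* were thus fewer but present in every mutant library, and the values give 1 level per gene, so which exons carried them cannot be read from them. The neuropeptide gene *flp-19* overlaps *abl-1* on the opposite strand and was at 4.96 ± 0.788 RPKM in *abl-1* KO libraries and 4.03 ± 0.727 RPKM in wt libraries (SD, n = 5 each), and whether the counting used strand is not given in the sources used here. Of the 7 tested genes within 50 kb of *abl-1*, *abl-1* alone was called and the others had log2 fold changes of -0.01 to 0.27.

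Of the 22 genes listed for ABL-1 and engulfment, 21 were tested, and beside *abl-1* none was called. Over all tested genes 0.478% were called, so no further call in a list of 21 is near that share. The median log2 fold change of the list was 0.01, against 0.03 over all tested genes, with 13 of 21 members above wt. The sign of that median depends on the scaling of the libraries, since it was -0.02 after rescaling by the median of ratios. The Abl interactor *abi-1* was at 140.4 ± 7.23 RPKM in *abl-1* KO libraries and 142 ± 1.86 RPKM in wt libraries (SD, n = 5 each), with a log2 fold change of -0.02. The engulfment receptor *ced-1* was at 20.9 ± 0.951 RPKM in *abl-1* KO libraries and 21.6 ± 0.878 RPKM in wt libraries. The levels of the receptor's adaptor *ced-6* were 35.6 ± 1.69 RPKM in *abl-1* KO libraries and 36.8 ± 0.801 RPKM in wt libraries. Likewise the Rac GTPase *ced-10*, on which the engulfment signals converge, was at 27.2 ± 0.795 RPKM in *abl-1* KO libraries and 26.8 ± 1.47 RPKM in wt libraries. In these 4 genes the libraries of the strains overlapped (adjusted p = 0.65 or more for *ced-1*, *ced-6* and *ced-10*). Among the members other than *abl-1* the largest log2 fold change in size was that of *unc-108*, a Rab GTPase of corpse degradation, at 0.07 (adjusted p = 0.653), and the smallest unadjusted p was that of *pig-1*, a kinase of asymmetric cell division, at 37.5 ± 1.22 RPKM in *abl-1* KO libraries and 38.8 ± 0.524 RPKM in wt libraries (SD, n = 5 each) (adjusted p = 0.525).

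Other lists tied to Abl kinases held no called gene. Over all tested genes 0.478% were called, so no call in lists of 20 to 25 genes is near that share. Of 20 tested genes of core apoptosis and the DNA damage response none was called, 10 lay above wt, and the median was 0.01, or -0.02 after rescaling by the median of ratios. The cell survival gene *ced-9* was at 61.6 ± 2.45 RPKM in *abl-1* KO libraries and 65 ± 1.51 RPKM in wt libraries (SD, n = 5 each) (log2 fold change -0.08 ± 0.03, SE, adjusted p = 0.254). Among 24 actin regulators no gene was called, 12 lay above wt and the median was 0, or -0.02 after that rescaling. The actin-binding protein gene *unc-115*, which acts in axon outgrowth, had the smallest unadjusted p among them, at 13.4 ± 1.15 RPKM in *abl-1* KO libraries and 11.9 ± 1.21 RPKM in wt libraries (SD, n = 5 each) (adjusted p = 0.427). Of 25 genes of axon guidance, 19 lay above wt and none was called (median 0.07, or 0.04 without *abl-1* KO replicate 2), with the ephrin gene *efn-2* first at 3.33 ± 0.209 RPKM in *abl-1* KO libraries and 2.62 ± 0.43 RPKM in wt libraries (SD, n = 5 each) (adjusted p = 0.226). Of 22 tyrosine kinase genes other than *abl-1*, none was called and 13 lay above wt. The tyrosine kinase gene *kin-14* was at 1.72 ± 0.229 RPKM in *abl-1* KO libraries and 2.25 ± 0.366 RPKM in wt libraries (SD, n = 5 each) (adjusted p = 0.276).

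The deepest losses lay side by side on chromosome II. F59E12.6 (chrII:5626717-5630951, minus strand) was the only gene of the table present in every library of one strain, at 0.5 RPKM or more, and under 0.1 RPKM in every library of the other. It was at 0, 0, 0, 0 and 0.0107 RPKM in *abl-1* KO libraries, against 16.5, 17, 16.2, 17.6 and 16.4 RPKM in wt libraries. It was thus listed at 0 in 4 of the 5 mutant libraries. F59E12.15 (chrII:5626315-5628376, minus strand), which overlaps it on the same strand, was also listed at 0 in 4 mutant libraries, at 0, 0.168, 0, 0 and 0 RPKM in *abl-1* KO libraries, against 20.4, 20.4, 21.3, 20.2 and 19.2 RPKM in wt libraries. Both fell (log2 fold changes of -5.10 and -5.29, adjusted p = 9.09e-26 and 3.05e-23), and these fold changes are set by the pseudocount, since the log2 fold change of F59E12.6 went to -7.37 with a pseudocount of 0.1.

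The third loss is *npl-4.2* (chrII:5622889-5624959, plus strand), a homologue of yeast Npl4, the cofactor through which the CDC-48 segregase binds ubiquitylated proteins. Its levels were 6.89, 6.95, 7.69, 7.51 and 8.35 RPKM in *abl-1* KO libraries, against 77, 74.1, 76.1, 73.5 and 72.6 RPKM in wt libraries. The mutant libraries stood at 10% of the wt level with no overlap (log2 fold change -3.24 ± 0.06, SE, adjusted p = 8.17e-21). On the other side of F59E12.6, 400 bp away, lies the paralogue *npl-4.1* (chrII:5631351-5633284, plus strand), at 84.1, 88.9, 87.7, 90.2 and 85.3 RPKM in *abl-1* KO libraries, against 70.9, 73.4, 80.1, 74.6 and 73.4 RPKM in wt libraries. It rose slightly, again without overlap (log2 fold change 0.23 ± 0.05, SE, adjusted p = 0.0211), though not when any 1 of 6 libraries was left out, *abl-1* KO replicates 2, 3 and 4 and wt replicates 1, 4 and 5. The paralogues may share reads, and how reads that map to several places were counted is not given in the sources used here. Around them, 25 of 34 genes within 50 kb of F59E12.6 were tested, these 4 were called, and the other 21 had log2 fold changes between -0.09 and 0.26. The next gene beyond *npl-4.2*, the translation initiation factor subunit gene *eif-3.L*, was at 110.4 ± 5.28 RPKM in *abl-1* KO libraries and 116 ± 9.72 RPKM in wt libraries (SD, n = 5 each).

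**Figure D2:**
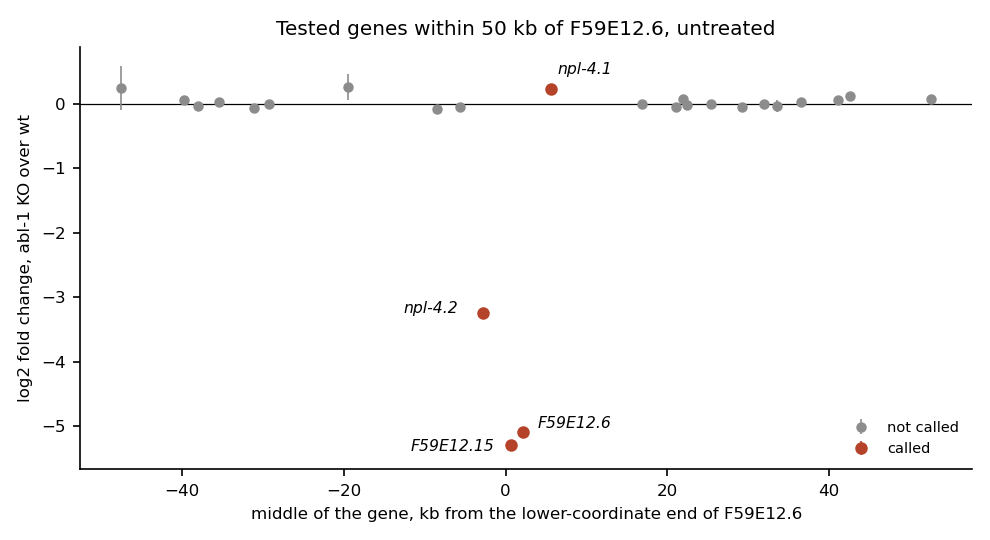
Log2 fold change of untreated *abl-1* KO over wt, with its standard error (vertical axis), for the tested genes within 50 kb of F59E12.6, by the distance in kb of each gene's middle from the lower-coordinate end of F59E12.6 (horizontal axis), called genes in red. The 3 genes at -5.29, -5.10 and -3.24 adjoin each other, and *npl-4.1* beside them is at 0.23.

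The called genes of detoxification were lower in the cytochrome P450 family and higher in others. Cytochrome P450 enzymes oxidise lipids and foreign compounds. Of 52 tested genes 3 fell (5.77%), against 0.164% of all tested genes, and none rose. All 3 are members of the *cyp-35A* subfamily, which is known for its induction by xenobiotics in the gut. The levels of *cyp-35A2* (chrV:7362319-7364182) were 20, 12, 6.94, 9.09 and 6.73 RPKM in *abl-1* KO libraries, against 50.5, 37.3, 28.9, 30.9 and 32.4 RPKM in wt libraries. For *cyp-35A3* (chrV:4022609-4024482) they were 0.31, 0.0455, 0.0792, 0.0395 and 0.0452 RPKM in *abl-1* KO libraries, against 9.17, 7.33, 3.01, 3.25 and 3.35 RPKM in wt libraries. The third, *cyp-35A4* (chrV:4031619-4033446), lies 7137 bp from *cyp-35A3* and was at 0.0556, 0.116, 0.0202, 0.0201 and 0.0153 RPKM in *abl-1* KO libraries, against 0.932, 1.02, 0.567, 0.699 and 0.492 RPKM in wt libraries. None of the 3 genes overlapped between the strains, and replicate 1 was the highest library of both strains for *cyp-35A2* and for *cyp-35A3*. They fell by log2 fold changes of -1.76, -3.13 and -1.17 in that order (SE 0.21, 0.23 and 0.13, adjusted p = 2.52e-05, 6.54e-09 and 3.24e-06). Members of this subfamily may share reads. The related *cyp-35C1* was at 9.17 ± 2.7 RPKM in *abl-1* KO libraries and 15.3 ± 3.41 RPKM in wt libraries (SD, n = 5 each) and did not pass (log2 fold change -0.72 ± 0.17, SE, adjusted p = 0.0618). The median of the whole family was -0.02, with 26 of 52 members above wt.

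UDP-glucuronosyltransferases, which attach sugars to lipophilic compounds, had calls in the other direction. Of 50 tested genes 2 rose (4%), against 0.313% of all tested genes, and none fell. In that list 43 genes lay above wt, as did 62.2% of all tested genes, and the median was 0.24, against 0.03 over all tested genes. Without *abl-1* KO replicate 2 that median was 0.18, and on quercetin it was 0.09 with 37 of 50 genes above wt. The member *ugt-64* (chrV:3503080-3506352) was at 33.8, 45.1, 34.1, 36 and 36.1 RPKM in *abl-1* KO libraries, against 19, 19.4, 15.9, 14 and 13.7 RPKM in wt libraries. All mutant libraries lay above all wt libraries (log2 fold change 1.16 ± 0.14, SE, adjusted p = 1.53e-05). The second, *ugt-25*, was at 12.4, 10, 10.8, 9.43 and 7.39 RPKM in *abl-1* KO libraries, against 6.89, 6.64, 6.94, 6.25 and 7.4 RPKM in wt libraries. Its groups overlapped by the lowest mutant library, and it rose by 0.51 (SE 0.11, adjusted p = 0.0269), but was not called without any 1 of 8 of the libraries. Of 30 short-chain dehydrogenase genes only *dhs-18* was called (3.33%, against 0.478% of all tested genes). It rose (log2 fold change 0.36 ± 0.08, SE, adjusted p = 0.0447), at 12.3 ± 1.84 RPKM in *abl-1* KO libraries and 9.42 ± 0.707 RPKM in wt libraries (SD, n = 5 each). None of 40 glutathione S-transferase genes and none of 42 ABC transporter genes was called, with medians of 0.04 and 0.05, or 0.01 and 0.03 without *abl-1* KO replicate 2. Glutathione S-transferases conjugate glutathione to reactive compounds, and the smallest unadjusted p in that family was that of *gst-27*, at 58 ± 3.24 RPKM in *abl-1* KO libraries and 53.4 ± 1.71 RPKM in wt libraries (SD, n = 5 each) (adjusted p = 0.267).

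Signalling and structural genes made up part of the remaining falls. The MAP kinase kinase gene *mek-1* (chrX:7479248-7481005), which acts upstream of the JNK-type kinase KGB-1 in stress and heavy metal responses, was at 65.9, 72.9, 84.6, 82.4 and 77.6 RPKM in *abl-1* KO libraries, against 99.5, 89.2, 108, 102 and 110.3 RPKM in wt libraries. It fell with no overlap between the strains (log2 fold change -0.41 ± 0.08, SE, adjusted p = 0.00732). Its neighbour 4230 bp away, *coh-1* (chrX:7465193-7475018), which encodes a kleisin subunit of cohesin, was at 10.4, 9.39, 11.1, 10.5 and 10.4 RPKM in *abl-1* KO libraries, against 12.9, 12.6, 14.2, 13.2 and 13.5 RPKM in wt libraries. It fell as well (log2 fold change -0.35 ± 0.04, SE, adjusted p = 4.99e-05). Of the 15 tested genes within 50 kb of *mek-1* these 2 were called, and the others had log2 fold changes of -0.20 to 0.30. Across 31 MAP kinase pathway genes *mek-1* was the only call (3.23%, against 0.478% of all tested genes). Of the 31, 26 stood above wt, and the median was 0.07. The Furry homologue *sax-2* (chrIII:5109701-5130676), which acts in the shape of sensory neurons, was at 16.8, 13.4, 12.8, 14 and 15.3 RPKM in *abl-1* KO libraries, against 20.8, 21.4, 23.1, 22.4 and 21.6 RPKM in wt libraries. It fell with no overlap (log2 fold change -0.58 ± 0.06, SE, adjusted p = 2.2e-06).

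The F-box gene *fbxa-192* (chrV:17640672-17650527) was at 11, 12.1, 11.7, 11.5 and 12.2 RPKM in *abl-1* KO libraries, against 16.8, 18.5, 18.4, 19.1 and 18.8 RPKM in wt libraries. F-box proteins select substrates for ubiquitin ligases, and *fbxa-192* fell (log2 fold change -0.63 ± 0.06, SE, adjusted p = 4.18e-07) while *fbxa-74* rose by 0.50 (SE 0.11, adjusted p = 0.0388), out of 268 tested F-box and MATH-BTB genes with a median of 0.01, or -0.01 after rescaling by the median of ratios. These calls are 0.746% of that list, against 0.478% of all tested genes. The gene *rpi-2* (chrIV:1711262-1714897), the homologue of the human retinal disease gene *RP2*, was at 11, 7.49, 10.6, 7.57 and 8.4 RPKM in *abl-1* KO libraries, against 14.7, 14, 13.8, 15.2 and 15.8 RPKM in wt libraries. It fell without overlap (log2 fold change -0.69 ± 0.09, SE, adjusted p = 3.71e-05). The desiccation tolerance gene *lea-1* (chrV:10011923-10028168), a late embryogenesis abundant protein, was at 40.5, 38.7, 40.8, 39 and 39.3 RPKM in *abl-1* KO libraries, against 45.2, 42.9, 44.3, 45.6 and 45.2 RPKM in wt libraries. Its fall was narrow but outside the spread of the libraries (log2 fold change -0.17 ± 0.03, SE, adjusted p = 0.00152).

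Other falls, in genes named here by their sequence names only, had log2 fold changes from -1.17 to -0.21. F08D12.2 (chrII:2781655-2783083) was at 4.48, 3.66, 3.31, 3.76 and 2.84 RPKM in *abl-1* KO libraries, against 9.3, 8.6, 8.21, 7.88 and 9.5 RPKM in wt libraries. F42A9.6 (chrIV:8609234-8611627) was at 25.3, 30.5, 23.8, 26.7 and 21.6 RPKM in *abl-1* KO libraries, against 52.6, 51.3, 54.9, 58.8 and 52.6 RPKM in wt libraries. H11E01.3 (chrX:1604906-1619151) was at 0.583, 0.518, 0.53, 0.468 and 0.501 RPKM in *abl-1* KO libraries, against 1.41, 1.51, 1.27, 1.12 and 1.46 RPKM in wt libraries. In each of the 3 genes every mutant library lay below every wt library, with log2 fold changes of -1.17, -1.07 and -0.86 (adjusted p = 8.19e-08, 1.77e-07 and 4.67e-06). C30F12.2 (chrI:6967670-6970145) was at 14.8, 16.5, 14.6, 15.6 and 13.1 RPKM in *abl-1* KO libraries, against 21.5, 19.8, 21.9, 21.3 and 22.2 RPKM in wt libraries. F56A4.3 (chrV:2453414-2456147) was at 34.7, 22.2, 26.9, 20.4 and 20.6 RPKM in *abl-1* KO libraries, against 37.9, 33.5, 39.7, 33.8 and 46.1 RPKM in wt libraries. C30F12.2 did not overlap between the strains and F56A4.3 did by its highest mutant library, and their log2 fold changes were -0.51 and -0.62 (adjusted p = 0.0125 and 0.0202). The last falls were those of T03D8.7, Y43C5A.7 and Y38H8A.7, at -0.73, -0.47 and -0.21. These 3 and F56A4.3 were each lost when 1 of several libraries was left out.

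The largest rise was that of C14C6.5 (chrV:536628-537418), at 54.4, 73.7, 75, 95.6 and 77 RPKM in *abl-1* KO libraries, against 21.1, 15.7, 16.5, 15.9 and 23.6 RPKM in wt libraries. The mutant mean was 4.04 times the wt mean (log2 fold change 1.98 ± 0.14, SE, adjusted p = 4.1e-09). F55G11.4 (chrIV:12973624-12975603), from a chromosome IV group of genes with CUB-like domains that includes reporters of pathogen infection, was at 13.6, 20.5, 21.5, 21.7 and 18.8 RPKM in *abl-1* KO libraries, against 4.85, 5.84, 5.14, 5.48 and 5.33 RPKM in wt libraries. Its mutant mean was 3.61 times the wt mean (log2 fold change 1.74 ± 0.13, SE, adjusted p = 6.54e-09). ZK596.1 (chrIV:10900176-10901386) was at 16.1, 18.9, 18.6, 16.2 and 20 RPKM in *abl-1* KO libraries, against 5.57, 5.82, 6.12, 5.95 and 6.44 RPKM in wt libraries. Here the wt libraries spread over less than 1 RPKM and the mutant libraries were about 3 times as high (log2 fold change 1.51 ± 0.09, SE, adjusted p = 2.11e-10). In none of these 3 genes did the libraries of the strains overlap.

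**Figure D3:**
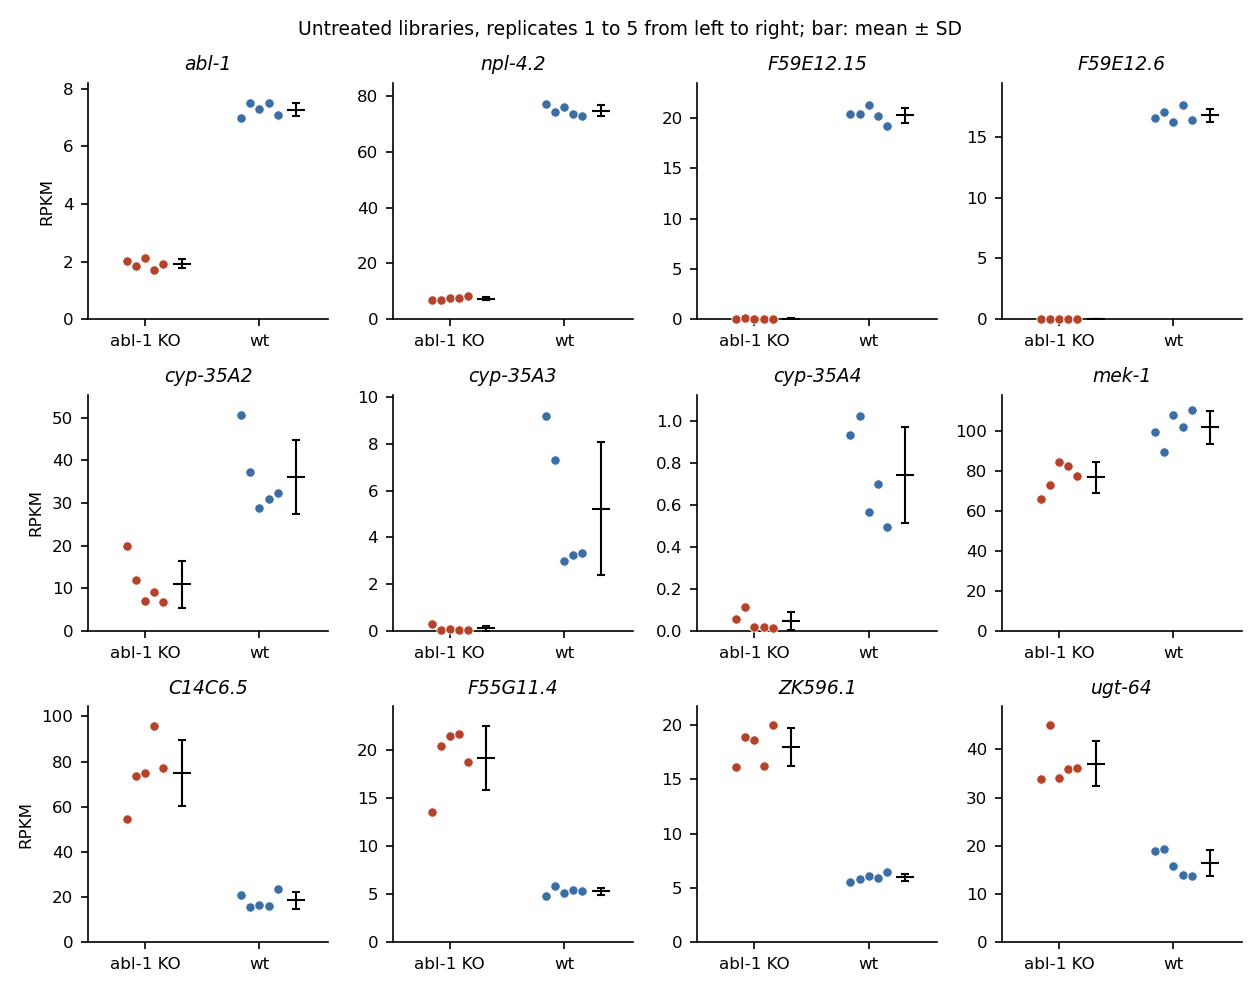
RPKM (vertical axes, starting at 0) of 12 called genes in the 5 untreated *abl-1* KO libraries (red, left) and the 5 untreated wt libraries (blue, right), with the mean and SD as a bar beside the points. In all 12 genes the libraries of the strains do not overlap: *abl-1*, the chromosome II genes, the *cyp-35A* genes and *mek-1* are lower in *abl-1* KO, and C14C6.5, F55G11.4, ZK596.1 and *ugt-64* are higher.

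Further rises by a log2 fold change of more than 1 were found in 4 genes. W06A11.4 (chrII:4056030-4057653) was at 6.08, 8.05, 8.35, 10 and 9.24 RPKM in *abl-1* KO libraries, against 2.73, 2.4, 2.6, 2.7 and 2.87 RPKM in wt libraries. ZC204.14 (chrII:1661806-1662949) was at 7.5, 8.23, 10.6, 10.4 and 12.7 RPKM in *abl-1* KO libraries, against 3.52, 4.36, 4.48, 4.21 and 3.45 RPKM in wt libraries. T11F8.5 (chrIV:5483023-5484053) was at 4.19, 6.26, 6.44, 6.33 and 4.7 RPKM in *abl-1* KO libraries, against 2.38, 2.3, 1.71, 3.18 and 2.53 RPKM in wt libraries. In all 3 the mutant libraries stood clear of the wt libraries, with log2 fold changes of 1.47, 1.19 and 1.06 (adjusted p = 1.77e-07, 1.1e-06 and 5.47e-05). The fourth, T19H12.15 (chrV:4878916-4879351), was at 2.49, 4.8, 3.28, 3.35 and 3.62 RPKM in *abl-1* KO libraries, against 1.32, 1.53, 0.369, 0.822 and 1.12 RPKM in wt libraries. Its spread was wider, from 0.369 to 1.53 RPKM in wt, and the rise held (log2 fold change 1.42 ± 0.21, SE, adjusted p = 0.000465).

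Smaller rises were seen in genes with known roles. The intraflagellar transport gene *dyf-3* (chrIV:3396581-3399231), needed for the cilia of sensory neurons, was at 2.91, 2.49, 3.31, 2.38 and 2.61 RPKM in *abl-1* KO libraries, against 1.04, 1.47, 1.1, 1.42 and 1.57 RPKM in wt libraries. The level in the mutant was 2.08 times that in wt (log2 fold change 0.84 ± 0.13, SE, adjusted p = 0.000774). The CRAL-TRIO and GOLD domain gene *ctg-1* (chrI:7005443-7009200) was at 24, 25.6, 23.7, 24.7 and 22.3 RPKM in *abl-1* KO libraries, against 19.1, 18.3, 18.1, 19.2 and 17.7 RPKM in wt libraries. This rise was 1.3-fold with no overlap (log2 fold change 0.37 ± 0.06, SE, adjusted p = 0.000525). The chaperone of the endoplasmic reticulum *hsp-3* (chrX:6089028-6092124), a homologue of mammalian BiP, was at 256, 257, 248, 252 and 246 RPKM in *abl-1* KO libraries, against 229, 235, 224, 228 and 223 RPKM in wt libraries. At 1.1-fold it was among the smallest rises called, and the libraries did not overlap (log2 fold change 0.14 ± 0.02, SE, adjusted p = 0.00248).

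Rises in F35F10.1, F14H12.3, F09C6.1 and C16C8.20 belong to the 15 rises with the smallest adjusted p. F35F10.1 (chrV:3316307-3317851) was at 8.54, 9.94, 8.87, 8.04 and 8.24 RPKM in *abl-1* KO libraries, against 5.29, 7.06, 4.87, 4.87 and 4.54 RPKM in wt libraries. F14H12.3 (chrX:4344215-4345654) was at 8.7, 9.28, 9.56, 8.44 and 7.88 RPKM in *abl-1* KO libraries, against 5.31, 6.57, 5.86, 5.03 and 6.83 RPKM in wt libraries. C16C8.20 (chrII:3446947-3448168) was at 6.44, 6.23, 5.93, 6.62 and 6.53 RPKM in *abl-1* KO libraries, against 2.89, 3.74, 2.33, 3.52 and 3.63 RPKM in wt libraries. These were clear of overlap, at log2 fold changes of 0.68, 0.54 and 0.90 (adjusted p = 0.000493, 0.000604 and 0.00215). F09C6.1 (chrV:16887357-16888888) was low in both strains, at 0.881, 0.628, 0.639, 0.637 and 0.66 RPKM in *abl-1* KO libraries, against 0.158, 0.324, 0.103, 0.333 and 0.134 RPKM in wt libraries. It rose as well (log2 fold change 0.75 ± 0.12, SE, adjusted p = 0.000903).

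The remaining called rises had log2 fold changes of 0.13 to 0.94. The neighbours F01D5.5 and F01D5.1 on chromosome II, 4105 bp apart, rose by 0.94 and 0.76 (adjusted p = 0.0434 and 0.00576), and *pqn-60*, a gene with a glutamine- and asparagine-rich domain, by 0.85 (adjusted p = 0.00277). In lipid and purine metabolism, the lipase gene *lips-15* rose by 0.35, at 48 ± 2.02 RPKM in *abl-1* KO libraries and 37.8 ± 4.16 RPKM in wt libraries (SD, n = 5 each). The microsomal triglyceride transfer protein gene *dsc-4* rose by 0.23, at 14.5 ± 0.49 RPKM in *abl-1* KO libraries and 12.4 ± 0.724 RPKM in wt libraries. The xanthine dehydrogenase gene *xdh-1* rose by 0.34, at 4.14 ± 0.402 RPKM in *abl-1* KO libraries and 3.17 ± 0.331 RPKM in wt libraries. These enzymes act in fat breakdown, lipoprotein assembly and purine breakdown. The LIM domain gene *ltd-1* rose by 0.39 and the tweety homologue *ttyh-1* by 0.20. The zinc finger gene *ztf-28*, the HIT domain gene *hint-3*, *swah-1* and *eas-1* rose by 0.28 to 0.33, F35E12.10, C06A5.12, T20D4.5 and C44F1.1 by 0.36 to 0.50, and Y40H7A.10, F30B5.4, C05D12.3, F56F10.1 and R07E5.19 by 0.13 to 0.29. Leaving out 1 library ended the call of 23 of the 61 genes in at least 1 of 10 fits, and 38 were called in all of them. The 23 were those with the largest adjusted p, 0.0181 or more, and include all rises by less than 0.30 other than *hsp-3*, *swah-1* and C05D12.3.

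Called genes were found on every chromosome. Chromosome V held 17 of 2381 tested genes (0.714%), chromosome II 14 of 2229 (0.628%) and chromosome IV 12 of 2126 (0.564%). The X chromosome, which carries *abl-1*, held 8 of 1824 (0.439%), chromosome I 5 of 2079 (0.241%) and chromosome III 4 of 2057 (0.194%). Over all tested genes the share was 0.478%. The order differed with the replicate block on the 10 untreated libraries, described below. There V held 74 (3.11%), X 42 (2.3%), IV 46 (2.16%), II 47 (2.11%), III 28 (1.36%) and I 17 (0.818%), against 2% of all tested genes. X also had the highest median log2 fold change, 0.06, against 0.03 over all tested genes. Among the 60 called genes with a position, 12 lay within 50 kb of another called gene, in 10 pairs. Beyond the chromosome II and X clusters and the pairs of *cyp-35A* and F01D5 genes, the only pair was C30F12.2 and *ctg-1*, 35298 bp apart, of which the first fell and the second rose. In 15 called genes another gene overlaps on the map, such as *acl-2* over *lea-1* and *chd-1* over *ctg-1*, and those partners were at 43.2 and 17.9 RPKM in *abl-1* KO, against 42.7 and 18.9 RPKM in wt.

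The 36 gene lists, chosen with earlier results known, were described by their counts and medians. Of all tested genes 61 (0.478%) were called, the share beside which the counts of calls stand. Of the 5 immune lists, 4 lay above the median of all tested genes, and the *pals* genes lay at it. Of 30 pathogen response reporters 1 rose (F55G11.4) and 21 lay above wt (median 0.12), while on quercetin 11 of 30 did (median -0.05). None of 86 C-type lectins (61 above, median 0.09), 10 lysozymes (8 above, median 0.12), 56 saposin-like and other antimicrobial peptide genes (42 above, median 0.18) or 9 *pals* genes (5 above, median 0.03) was called. The lysozyme gene *lys-7* was at 73.2, 62.5, 150.3, 132 and 90.3 RPKM in *abl-1* KO libraries, against 54.2, 19, 67.4, 56.3 and 61.9 RPKM in wt libraries. Its groups overlapped and it did not pass (log2 fold change 1.01 ± 0.42, SE, adjusted p = 0.38), but within every replicate number the mutant library was the higher one, and it passed with the replicate block (adjusted p = 0.0256). The antimicrobial peptide genes *abf-5* and *nlp-31* were at 4.37 ± 0.734 RPKM in *abl-1* KO libraries and 2.71 ± 0.475 RPKM in wt libraries (SD, n = 5 each), and at 29.2 ± 12 RPKM in *abl-1* KO libraries and 16.9 ± 3.99 RPKM in wt libraries, with adjusted p = 0.1 and 0.216. The C-type lectin *clec-7* was at 3.33 ± 0.519 RPKM in *abl-1* KO libraries and 1.97 ± 0.565 RPKM in wt libraries (SD, n = 5 each) (adjusted p = 0.103).

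Cuticle collagens had a median of 0.27, with 107 members above wt, 12 below and none called. That was the highest of the 36 lists with all libraries, but without *abl-1* KO replicate 2 it was 0.10, below the UDP-glucuronosyltransferases at 0.18 and the antimicrobial peptides at 0.13. The epidermis markers summed to 724 to 1128 RPKM in *abl-1* KO libraries and 597 to 897 RPKM in wt libraries. Most of that sum was *col-19*, itself a member of the collagen list. The markers are thus no separate measure, and their part in that median was not tested. The adult collagen *col-19* was at 1104, 998, 771, 706 and 723 RPKM in *abl-1* KO libraries, against 878, 875, 632, 579.6 and 605 RPKM in wt libraries. In each replicate number the mutant library was the higher one, while the groups overlapped. Of 42 hedgehog-related and patched-related genes, 30 lay above wt (median 0.10), and of 160 nuclear hormone receptor genes 31 lay below it (median 0.12, 0.08 without *abl-1* KO replicate 2), with no call in either list. Among neuronal lists, 53 of 63 neuropeptide and insulin-like genes (median 0.15, or 0.09 without *abl-1* KO replicate 2), 30 of 35 synaptic release genes (median 0.09) and 55 of 76 genes of G protein signalling (median 0.06, or 0.04 without that library) lay above wt, with none called. The insulin-like gene *ins-7* was at 1.49 ± 0.585 RPKM in *abl-1* KO libraries and 0.602 ± 0.181 RPKM in wt libraries (SD, n = 5 each) (adjusted p = 0.073, or 0.0469 with the replicate block), and the Gq alpha gene *egl-30* at 28.5 ± 1.4 RPKM in *abl-1* KO libraries and 24.2 ± 1.09 RPKM in wt libraries (adjusted p = 0.0966, or 0.0226 with the block).

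Proteostasis and housekeeping lists lay close to the median of all genes. Of 26 genes of the endoplasmic reticulum stress response and its chaperones, *hsp-3* and *npl-4.1* rose and *npl-4.2* fell, and the median was 0.03. These calls are 11.5% of that list, against 0.478% of all tested genes, and *npl-4.1* and *npl-4.2* are the neighbours on chromosome II. The transcription factor gene of that response, *xbp-1*, was at 131 ± 16.9 RPKM in *abl-1* KO libraries and 114 ± 8.99 RPKM in wt libraries (SD, n = 5 each) (adjusted p = 0.223, or 0.0407 with the block). None of 58 cytosolic and mitochondrial chaperones, 32 core autophagy genes, 38 oxidative stress genes, 14 genes of amyloid precursor and secretases, 80 ribosomal proteins or 46 respiratory chain genes was called, with medians from -0.01 to 0.05. The signs of these small medians depend on the scaling, since those of autophagy, oxidative stress, ribosomal and respiratory genes were all -0.01 after rescaling by the median of ratios. The autophagy gene *bec-1*, the worm Beclin, was at 31.5 ± 1.9 RPKM in *abl-1* KO libraries and 33.7 ± 2.9 RPKM in wt libraries (SD, n = 5 each), and the amyloid precursor homologue *apl-1* at 35.3 ± 4.01 RPKM in *abl-1* KO libraries and 31.2 ± 3.01 RPKM in wt libraries (adjusted p = 0.533 and 0.444). Of 107 genes of lipid transport and storage *lips-15* was the only call (0.935%, median 0.03, or 0.01 without *abl-1* KO replicate 2). The lists with the lowest medians were histones (26 of 68 above, median -0.07), replication and mitosis genes (7 of 43 above, median -0.06) and proteasome subunits (3 of 33 above, median -0.03), without a call. The mitotic checkpoint kinase *bub-1* was at 82 ± 3.6 RPKM in *abl-1* KO libraries and 89.3 ± 3.45 RPKM in wt libraries (SD, n = 5 each), with a log2 fold change of -0.12 (adjusted p = 0.154).

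**Figure D4:**
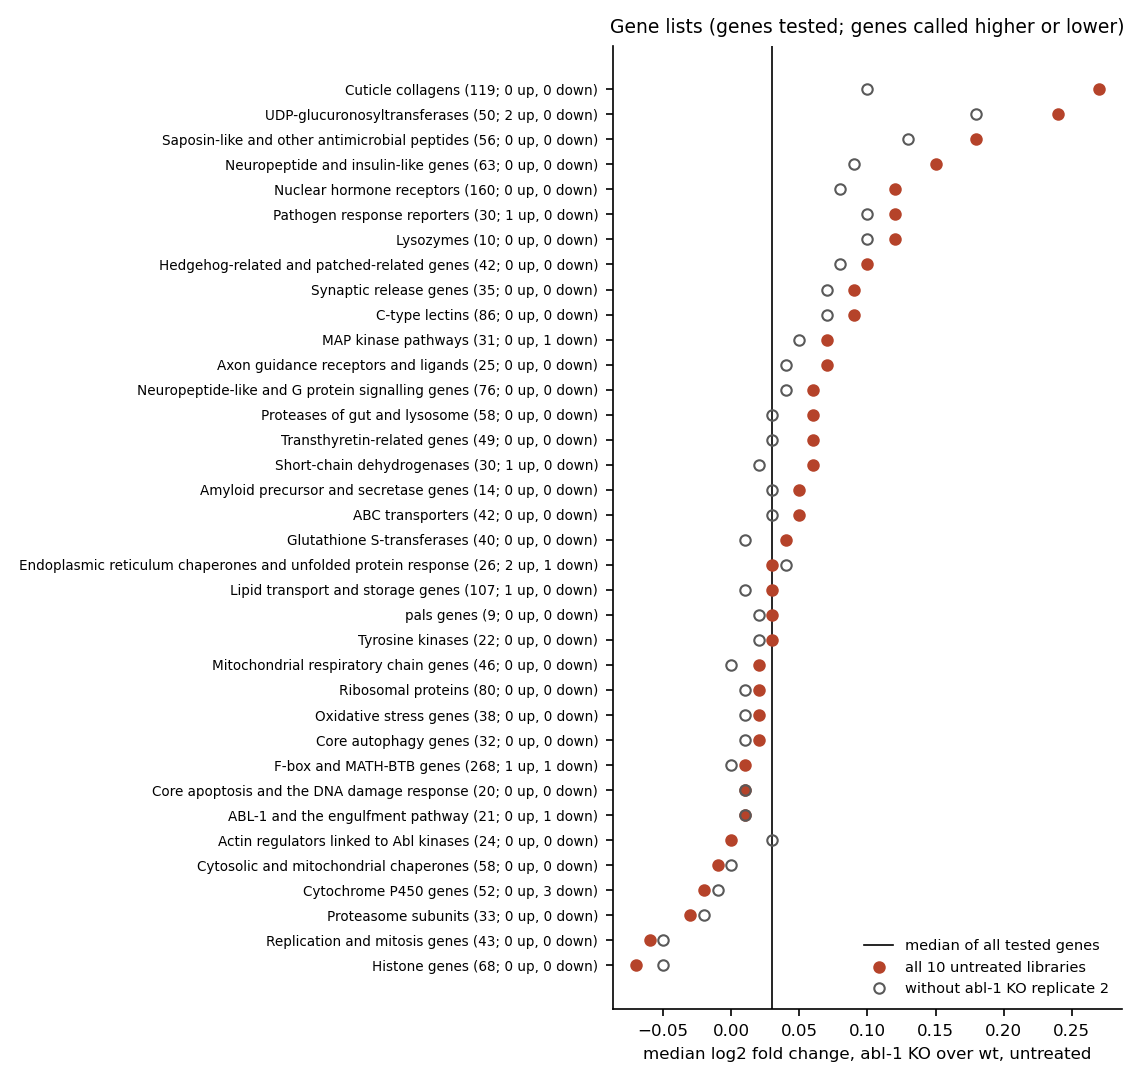
Median log2 fold change of untreated *abl-1* KO over wt (horizontal axis) for each of 36 gene lists, with the number of genes tested and called beside the name. Filled points use all 10 untreated libraries, open points leave out *abl-1* KO replicate 2, and the vertical line is the median of all tested genes, 0.03. The cuticle collagens are at 0.27 with all libraries and at 0.10 without that library, where the UDP-glucuronosyltransferases at 0.18 and the antimicrobial peptides at 0.13 are higher.

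Libraries of the same replicate number tended to vary together in the 2 strains, though not equally. Their deviations from the group mean correlated at 0.144 for replicate 4 and up to 0.582 for replicate 2. Of the 10 untreated libraries, 7 correlated best with the library of their own number in the other strain. A fit with the replicate number as a block on the 10 untreated libraries called 256 genes (2%), of which 193 were higher (1.51%) and 63 lower (0.493%) in *abl-1* KO. It kept 51 of the 61 genes above and added 205 with a median size of 0.34 on the log2 scale. With the block F30B5.4, *ugt-25*, Y40H7A.10, T20D4.5, *dsc-4*, *ltd-1*, Y38H8A.7, R07E5.19, *ttyh-1* and C44F1.1 no longer passed (adjusted p = 0.0865, 0.0524, 0.0524, 0.0674, 0.0812, 0.125, 0.0922, 0.0871, 0.0522 and 0.119), whereas a block over all 24 libraries called all 61 among 466 genes (3.65%). Cytochrome P450 calls under the 10-library block became 5 lower, adding *cyp-35C1* (adjusted p = 0.000755) and *cyp-25A1*, and those of the UDP-glucuronosyltransferases 7 higher and 1 lower. Of the cuticle collagens 13 were higher and 2 lower with the block, *col-19* among the higher ones (adjusted p = 0.00176). Of 56 antimicrobial peptide genes 7 rose, including *abf-5*, *fipr-22* and *nlp-31*, and of 49 transthyretin-related genes 5 did, including *ttr-26*. With the block 5 of 42 hedgehog-related and patched-related genes were higher, as were 2 of 10 lysozymes, *lys-7* and *ilys-2*. Of the pathogen response reporters 4 were higher and 1 lower, and of the C-type lectins 1 was higher and 2 were lower. For *ttr-26* the levels were 13.9, 18.2, 11.6, 9.9 and 10.3 RPKM in *abl-1* KO libraries, against 7.16, 12.1, 5.89, 5.6 and 5.94 RPKM in wt libraries. The wt library of replicate 2 lay above 3 mutant libraries, and within each number the mutant library was the higher one (adjusted p = 0.000737 with the block, 0.08 without it).

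The strain difference was measured a second time in 10 libraries on quercetin, from which the untreated fold changes take no value. Both comparisons share the estimate of the spread, into which all libraries enter. Their p-values and lists of calls are therefore not independent of each other. There 62 genes (0.485%) were called, 37 higher (0.29%) and 25 lower (0.196%) in *abl-1* KO. The number called in both was 41, which is 67.2% of the untreated and 66.1% of the quercetin calls, 22 of them higher and 19 lower. All 61 genes had the same sign on quercetin, against 70% of all tested genes. On quercetin *abl-1* was at 1.71 to 2.14 RPKM in *abl-1* KO libraries, against 6.92 to 7.77 RPKM in wt libraries, with a log2 fold change of -1.68, as in untreated animals. For *npl-4.2* the range was 5.42 to 7.68 RPKM in *abl-1* KO libraries, against 72.7 to 80.3 RPKM in wt libraries. C14C6.5 was at 57.9 to 79.3 RPKM in *abl-1* KO libraries, against 13.2 to 21.3 RPKM in wt libraries. Like these, *cyp-35A2* stood apart in both conditions, at 6.34 to 11.3 RPKM in *abl-1* KO libraries, against 26.1 to 35 RPKM in wt libraries. The 20 genes called in untreated animals only had a median size of 0.34, against 0.85 for those called in both. Among them, *ltd-1*, *dhs-18*, *ttyh-1* and *fbxa-74* had log2 fold changes of 0.04, 0.02, 0.05 and 0.15 on quercetin (adjusted p = 0.735 or more).

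The difference of the strain effect between quercetin and untreated animals was tested directly. By limma no gene passed at an adjusted p of at most 0.05, with or without the replicate block, and 203 genes (1.59%) passed at an unadjusted p of at most 0.05. In that test 6 of the 61 genes stood at or under an unadjusted p of 0.05, and the adjusted p was 1 for every one of the 61. The 61 genes were chosen by untreated values that also enter this test. The 6 can therefore not be set against the 1.59% of all genes. For *cyp-35A3*, a gene of low level in the mutant, the log2 fold change was -2.67 on quercetin and -3.13 untreated (SE 0.23 each).

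**Figure D5:**
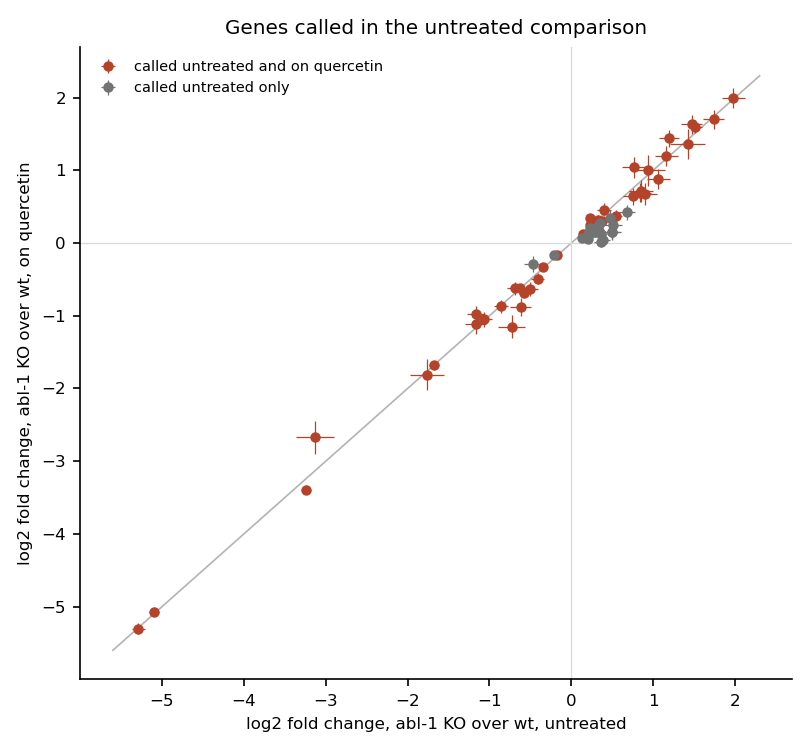
Log2 fold change of *abl-1* KO over wt on quercetin (vertical axis) against that in untreated animals (horizontal axis) for the 61 genes called in untreated animals, with standard errors and the line of equality. Red points are the 41 genes called in both conditions and grey points the 20 called in untreated animals only, and all 61 have the same sign in both.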

How the data were processed

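The deposited values are RPKM per gene and library, which the authors made from single 150 bp reads of stranded poly(A) libraries in CLC Genomics Workbench against WBcel235; how reads with several map positions and strand were counted is not given in the sources used here. From these values, log2(RPKM + 0.5) of the 12771 genes that reached 0.5 RPKM in 4 or more of 24 libraries was fitted with limma 3.58.1 in R 4.3.3 with a mean-variance trend, as 5 groups, with Benjamini-Hochberg adjustment and a threshold of 0.05. The test was checked on simulated data. Named are all called genes (values of every library for the 15 with the smallest adjusted p in each direction), in every list at most 4 members, by smallest p, the engulfment members and genes present in one strain only. Genes named outside this rule (*col-19*, *fipr-22*, *cyp-25A1*, *eif-3.L* and overlapping neighbours) were chosen after their values were seen. The members and the lists were chosen with earlier results of these data known. Libraries of both untreated strains with the same number, as the labels give it, tended to deviate together, weakly for replicate 4 (correlations 0.442, 0.582, 0.456, 0.144 and 0.463 for replicates 1 to 5). The replicate number was therefore also fitted as a block. Other alternatives were pseudocounts, floors, scalings, array weights, the 10 libraries alone, and leaving out each library. Positions are from the WBcel235 annotation, which matched 18971 genes by symbol. Depth is an estimate from the spacing of low values, and p-values measure the spread between these libraries. An exact permutation test of 5 against 5 libraries cannot go below 0.00794.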

Additional observations from a re-analysis of the deposited data

Results flagged for a closer look

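Of 142 groups of 5 untreated libraries checked, 12 held a library set apart from the other 4 by Dixon's rule (gap over range above 0.71), where chance gives about 5%. Among the genes lower in *abl-1* KO, F59E12.6 was at 0.0107 RPKM in *abl-1* KO replicate 5 and F59E12.15 at 0.168 RPKM in replicate 2, both with the other mutant libraries at 0. There the rule flags any value above 0, so neither flag can be set against that 5%. The *cyp-35A3* value of 0.31 RPKM in *abl-1* KO replicate 1 stood above the other mutant libraries, and T03D8.7 was low in replicate 3 at 1.35 RPKM. In wt, *fbxa-192* was low in replicate 1 at 16.8 RPKM.

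Among the genes higher in *abl-1* KO, *ugt-64* was at 45.1 RPKM in *abl-1* KO replicate 2, F09C6.1 at 0.881 RPKM in replicate 1 and *dsc-4* at 15.4 RPKM in replicate 5, each above the other mutant libraries. In wt, *swah-1* was high in replicate 3 at 33.8 RPKM and F01D5.5 low in replicate 4 at 1.1 RPKM. The sums of 2 marker sets stood apart, intestine in *abl-1* KO replicate 2 at 8718 RPKM and early embryo in wt replicate 5 at 16.4 RPKM, both below the other libraries. The causes were not tested.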

How the results depend on the processing

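Against 61 calls in untreated animals (40 higher, 21 lower in *abl-1* KO), the replicate block gave 466 (346 higher, 120 lower) over 24 libraries and 256 (193 higher, 63 lower) over the 10 compared, the 10 alone without a block 39 (22 higher), and Bonferroni adjustment 28 (13 higher). Leaving out 1 library gave 41 to 66 calls, 23 to 48 of them higher. The higher calls were 23 without *abl-1* KO replicate 2, 25 without *abl-1* KO replicate 4, 25 without wt replicate 3 and 23 without wt replicate 4. Scaling by the median of ratios gave 29 higher and 26 lower, and by trimmed means 28 and 27. On quercetin, against 62, the block gave 252 (158 higher, 94 lower) and Bonferroni 29 (11 higher), and the calls in both conditions, against 41, were 149 and 22. Leaving out 1 quercetin library, chosen after seeing the data, gave 43 to 59 calls, 22 to 37 higher and 20 to 25 lower. No called gene reversed in 1329 values, of which 273 lost the call. The fold change of *abi-1*, -0.02, lay between -0.04 and 0.01 when 1 library was left out. Beside the genes named in the report, the 10-library block ended no other of the 61 calls. The causes of these changes were not tested. Estimated depth limits genes under 0.5 RPKM.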

Other observations

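Below the level tested, *rac-2*, a Rac GTPase gene on chromosome IV, was listed at 0 in every untreated wt library and at 0.0405 to 0.16 RPKM in every untreated *abl-1* KO library. On quercetin it was at 0 to 0.159 RPKM in *abl-1* KO libraries, with 2 of them at 0, and at 0.0482 to 0.112 RPKM in wt libraries. The gene was chosen after its values were seen.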
